A study of Mus musculus with 8 samples.

Results

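The genes described here are those that copy DNA and supply it with nucleotides: the origin recognition complex, the factors that license origins, the MCM2-7 helicase with Cdc45 and GINS, the sliding clamp and its loader, the replicative polymerases and primase, the single-strand binding, flap-removing and ligating proteins, and 4 enzymes of deoxynucleotide supply. They were taken by name from a list of 45 mouse genes by a rule that uses no measured value, and 43 of the 45 were found among the 17728 genes with a usable row. Cdt1 and Gins2 were not analysed here. All 43 passed the filter on low values (1 FPKM on average across the 8 libraries) and were among the 11269 genes tested. FPKM counts fragments relative to transcript length and to the library's total, so levels of different genes are compared per length.

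RNA had been measured in mouse embryonic stem cells of the E14TG2a line (strain 129/Ola, passages 3 to 6), cultured without a feeder layer in serum medium with LIF, the GSK3 inhibitor CHIR99021 and the MEK inhibitor PD0325901. All 4 groups shared these conditions: wild-type cells (WT) and the cells labelled E1-KO, E2-KO and E3-KO, in each of which CRISPR/Cas9 had removed an enhancer, with 2 biological duplicates a group. The series asked how promoter and enhancer associations bear on Sox2, a transcription factor gene of pluripotent cells. The labels give neither the positions of the enhancers nor whether a line is 1 clone, and edited cells with an intact enhancer were not analysed here. Loss of an enhancer, clonal origin and culture therefore cannot be told apart in any comparison with WT, and the p-values measure the spread between these samples only.

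Replication origins are licensed when the origin recognition complex, Cdc6 and Cdt1 load the MCM2-7 ring onto DNA, a step that geminin (Gmnn) blocks after S phase has begun. Cdc45 and GINS then turn the ring into the active helicase, polymerase alpha with primase starts each strand, PCNA loaded by the RFC complex holds polymerases delta and epsilon on the template, and Fen1 and Lig1 process and seal Okazaki fragments. Embryonic stem cells spend a large part of their short cycle in S phase, and many of these genes are known targets of E2F transcription factors.

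Promoter sequence was examined because members of the set are classical E2F targets and because members of the same complex moved in different directions. RefSeq windows on GRCm38.p6, each reaching from 250 bases before a gene's start to 50 bases after it, were matched by symbol for 37 of the 45 genes. The letters TTTCCCGC, TTTCGCGC, TTTGCCGC or TTTGGCGC, searched on both strands and with overlapping matches counted separately, were present for 15 of the 37 genes (40.5%), beside 2.6% of all 27025 genes in the table and 3.29% of the 17492 protein-coding ones. The letters CCAAT were present for 62.2% of the 37 genes and 41.1% of all genes, and TTTGAA, the cell cycle homology region, for 13.5% and 20.2%. Of the 14 genes with E2F letters and values, 2 were called higher and 1 lower for E1-KO (limma-trend adjusted p under 0.05), 2 and 1 with E2-KO and 2 and 4 with E3-KO. Of the 22 in the table without these letters, the counts were 6 and 2 for E1-KO, 5 and 0 with E2-KO and 2 and 7 with E3-KO. All tested genes were called higher and lower at 15.0% and 23.0% for E1-KO, 14.2% and 22.0% with E2-KO and 13.9% and 30.8% with E3-KO, and the shares called lower with E3-KO lie near that background in both sets. The windows of 4 genes are printed 5′ to 3′ on the gene's strand, with E2F letters in capitals: Mcm5 (chr8:75109259-75109558, plus strand) and Cdc6 (chr11:98907901-98908200, plus strand) were higher in all 3 knockouts and hold matches, Tyms (chr5:30073576-30073875, minus strand) was also higher and holds none, and Mcm6 (chr1:128359656-128359955, minus strand) was called lower in E1-KO and E3-KO but not in E2-KO (-0.25, limma-trend adjusted p = 0.0613) and holds 3.
Mcm5: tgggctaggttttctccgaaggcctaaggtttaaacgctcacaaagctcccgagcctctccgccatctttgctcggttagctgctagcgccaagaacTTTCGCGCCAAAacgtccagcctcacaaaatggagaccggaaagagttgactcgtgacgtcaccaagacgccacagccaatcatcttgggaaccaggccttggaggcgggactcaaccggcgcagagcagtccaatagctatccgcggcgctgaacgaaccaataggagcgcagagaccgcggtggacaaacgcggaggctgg
Cdc6: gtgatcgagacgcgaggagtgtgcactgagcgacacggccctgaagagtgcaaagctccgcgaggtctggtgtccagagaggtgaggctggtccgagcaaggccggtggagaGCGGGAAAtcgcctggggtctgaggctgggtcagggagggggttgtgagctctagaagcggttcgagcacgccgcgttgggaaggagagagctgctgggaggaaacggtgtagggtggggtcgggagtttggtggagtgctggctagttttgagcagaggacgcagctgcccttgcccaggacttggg
Tyms: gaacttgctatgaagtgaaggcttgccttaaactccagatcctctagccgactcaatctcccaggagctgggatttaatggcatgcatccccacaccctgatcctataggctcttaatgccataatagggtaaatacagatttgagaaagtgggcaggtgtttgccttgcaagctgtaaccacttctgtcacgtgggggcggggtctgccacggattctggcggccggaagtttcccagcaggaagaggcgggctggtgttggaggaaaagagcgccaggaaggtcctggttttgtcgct
Mcm6: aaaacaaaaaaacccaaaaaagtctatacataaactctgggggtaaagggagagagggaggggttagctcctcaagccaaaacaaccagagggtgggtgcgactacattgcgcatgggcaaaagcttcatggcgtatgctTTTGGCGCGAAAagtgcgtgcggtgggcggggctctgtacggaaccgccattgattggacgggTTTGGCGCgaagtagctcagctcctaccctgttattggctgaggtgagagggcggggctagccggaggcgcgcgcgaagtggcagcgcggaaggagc
The first match in Mcm5 begins 153 bases before the start, that in Cdc6 138 bases before it, and the matches in Mcm6 begin 110, 106 and 47 bases before it. A match describes the letters in the window and not a bound site.

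Replication genes were highly expressed in WT cells. Their median level was 52.3 FPKM, against 13.8 FPKM over all genes tested, and 42 of the 43 lay above that median. The helicase subunits Mcm7 (236.4 ± 4.84 FPKM, SD, n = 2), Mcm2 (216.0 ± 3.78) and Mcm3 (175.8 ± 0.985) and the clamp Pcna (178.4 ± 5.12) had the highest means, followed by Rrm2, the small subunit of ribonucleotide reductase, at 163.7 ± 2.71. Mcm3 and Pcna did not differ beyond their spread. At the low end stood the polymerase epsilon subunit Pole2 (18.83 ± 1.44) and the GINS subunit Gins3 (6.901 ± 0.0596). Within complexes the levels were uneven: subunits of the MCM2-7 ring, which holds each once, ranged from 85.07 FPKM (Mcm4) to 236.4 FPKM (Mcm7), and those of the origin recognition complex from 27.62 (Orc2) to 59.43 FPKM (Orc3).

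Sox2 stood at 133.4 ± 4.05 FPKM in WT, with E1-KO at 59.15 ± 1.58, E2-KO at 105.5 ± 11.3 and E3-KO at 94.35 ± 4.79 (limma-trend adjusted p = 0.000168, 0.0314 and 0.0049 against WT). The E2-KO call was lost without any single sample of E1-KO or WT, without E2-KO replicate 2 (0.0592 to 0.171) and under median-ratio scaling (0.0642). Pearson correlations of log2(FPKM + 1) were 0.985 to 0.994 within groups and 0.941 to 0.982 between them. All 10 embryonic stem cell markers passed the filter on low values, and their summed level was 2798.1 to 2895.4 FPKM in WT, with E1-KO at 2582.9 to 2656.6, E2-KO at 2683.8 to 2899.3 and E3-KO at 2235.7 to 2537.8. The sums for 8 trophoblast markers were 55.0 to 58.7, 38.6 to 45.7, 37.4 to 42.3 and 58.5 to 75.2 FPKM in the same order, and those for the 4 of 6 primitive endoderm markers in the files were 1.3 to 1.4, 0.6 to 0.7, 0.9 to 1.0 and 2.2 to 4.4 FPKM. For the 4 of 6 neural markers in the files the sums were 7.3 to 8.9, 12.5 to 13.9, 9.9 to 10.3 and 13.0 to 13.1 FPKM, and for 8 fibroblast markers 67.0 to 68.3, 56.0 to 73.2, 97.2 to 104.0 and 98.7 to 114.7 FPKM. Of the fibroblast markers, Col1a1, Col1a2, Col3a1, Postn, Dcn and Lum were under 1 FPKM in every sample. So were 3 of the trophoblast and 3 of the primitive endoderm markers, and no marker was at 0 in all samples. The other 2 fibroblast markers, Thy1 and Vim, were both called higher in E2-KO (lowest and highest log2 fold change 0.51 and 0.55) and in E3-KO (0.62 and 1.06). In E1-KO, where the lower value was -0.13 and the higher 1.03, 1 was called higher. These pairs are ordered by size and not by gene. Higher calls made up 15.0%, 14.2% and 13.9% of all genes in E1-KO, E2-KO and E3-KO, and lower calls 23.0%, 22.0% and 30.8%. The sums do not show changes of single markers. Of the 10 embryonic stem cell markers, E1-KO had 1 called higher and 4 lower (log2 fold changes of all: -1.16 to 1.23). E2-KO had 3 higher and 3 lower (-1.17 to 1.09), E3-KO 1 and 5 (-1.08 to 0.66). Of 5 trophoblast markers tested, E1-KO had 1 higher and 2 lower, E2-KO 2 lower only, E3-KO 2 higher only. The 1 primitive endoderm marker tested was called higher in E3-KO alone (0.79). The part of these differences in the results was not tested. In bulk RNA, fewer cells making a transcript and less of it per cell cannot be told apart, and this holds for the share of cells in S phase too.

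Each knockout carried a mixed change in the replication genes, and all called changes against WT were under 1 on the log2 scale. A gene was called at a Benjamini-Hochberg adjusted p under 0.05 from limma-trend, run over all 11269 genes on log2(FPKM + 1), the scale of every log2 fold change given. Against WT, E1-KO had 11 of 43 members called higher and 3 lower, beside 38.0% of all genes called (15.0% higher, 23.0% lower). E2-KO had 11 higher and 1 lower, beside 36.1% of all genes (14.2% higher, 22.0% lower). E3-KO had 5 higher and 12 lower, beside 44.7% of all genes (13.9% higher, 30.8% lower). The shares of members called, 32.6%, 27.9% and 39.5%, were thus below the share over all genes in each comparison, and the share called lower in E3-KO was near it. The members' median log2 fold change was 0.17 (E1-KO), 0.12 (E2-KO) and -0.15 (E3-KO), beside -0.062, -0.076 and -0.151 over all genes tested. Both knockout samples lay above both WT samples for 24 members and below them for 8 in E1-KO, beside 33.0% and 44.0% of all genes (77.0% in either direction). These counts were 21 and 10 for E2-KO, beside 29.6% and 42.2% (71.8%), and 8 and 22 for E3-KO, beside 25.7% and 48.4% (74.2%).

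Scaling shifted the split between higher and lower calls. Quantile normalization gave 9 higher and 5 lower members for E1-KO, 8 and 4 with E2-KO and 7 and 8 with E3-KO. It called 18.1% of all genes higher and 18.9% lower for E1-KO, and 16.7% and 17.7% with E2-KO. Median-ratio scaling, which brought the median of all genes in E3-KO from -0.151 to 0.003, gave 8 higher and 5 lower members there with a member median of 0.02. Scaling without the 50 highest genes gave 9 and 4 with E2-KO and 7 and 9 with E3-KO. With E2-KO it called 12.9% of all genes higher and 25.1% lower. Lower calls among the members thus outnumbered higher ones in E3-KO except under median-ratio scaling, and no called member changed its sign under any of the 3 scalings. Without rescaling, lower calls also outnumbered higher ones over all genes in E3-KO (30.8% against 13.9%). Under each scaling, the shares of all genes called in E3-KO are not given here. The split there is therefore not read as a trait of the members.

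**Figure D1:**
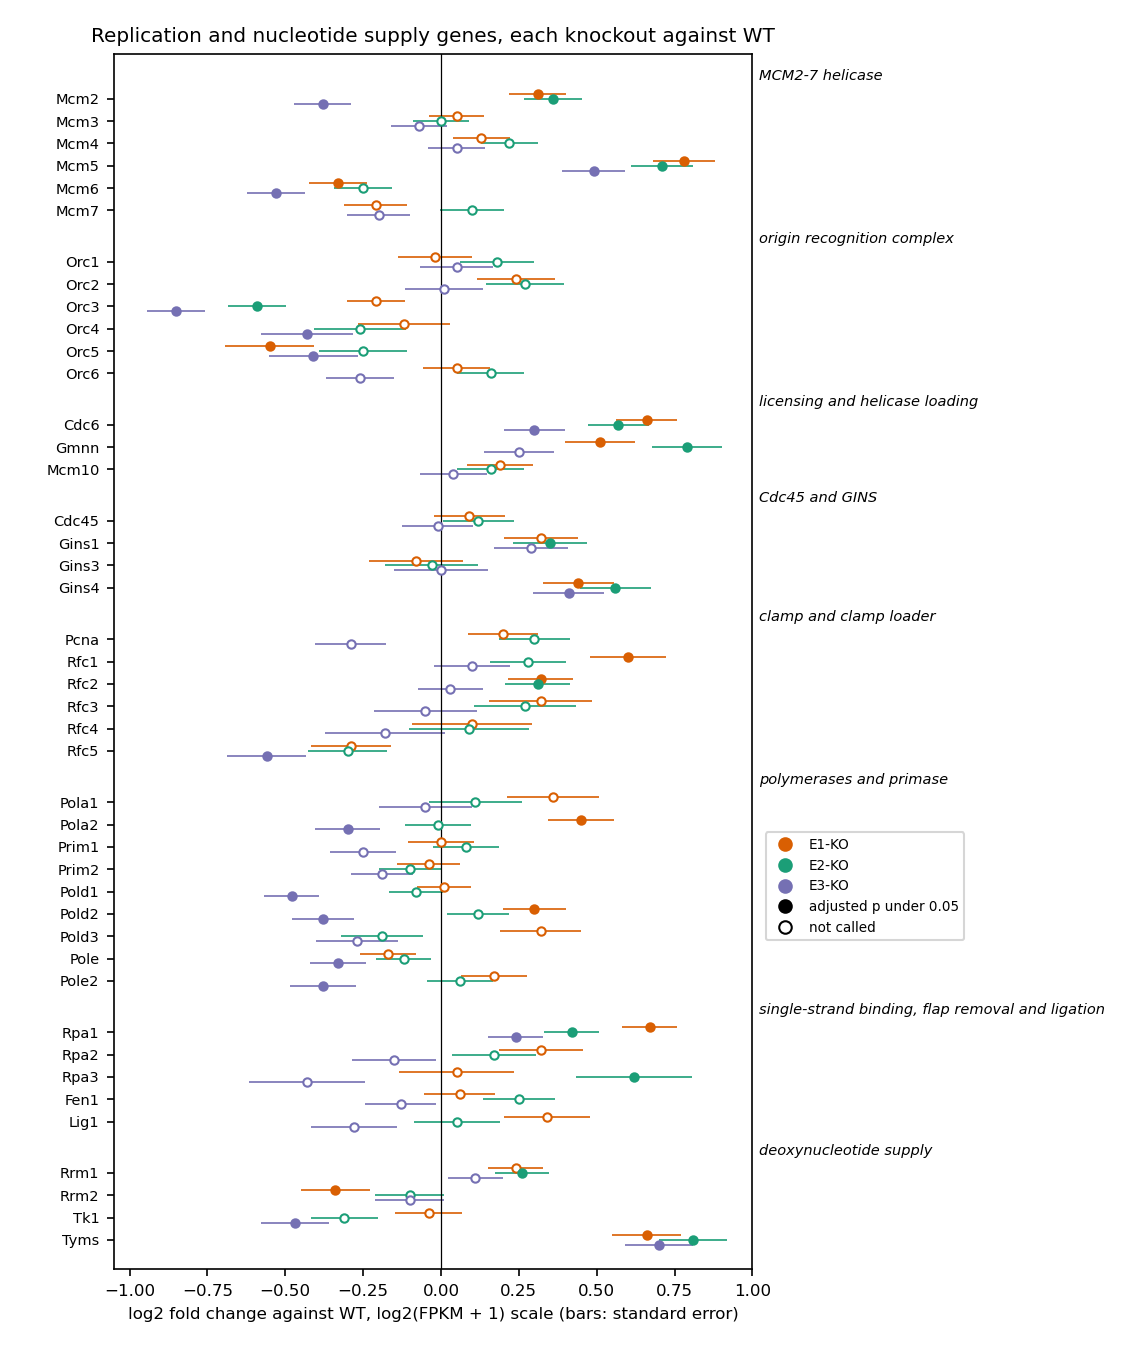
Log2 fold change against WT on the log2(FPKM + 1) scale (x axis) of the 43 replication and nucleotide supply genes, grouped by complex, for E1-KO, E2-KO and E3-KO. Points are estimates, bars their standard errors, and filled points have an adjusted p under 0.05. Mcm5, Cdc6, Gins4, Rpa1 and Tyms lie to the right with filled points in all 3 knockouts, whereas Mcm2, Pola2 and Pold2 have filled points on both sides.

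Called higher in all 3 knockouts were 5 members, Mcm5, Cdc6, Gins4, Rpa1 and Tyms, beside 6.56% of all genes tested. No member was called lower in all 3, beside 13.0% of all genes; at an unadjusted p under 0.05 there were 2, Mcm6 and Orc3. The 3 comparisons share the WT samples and are not independent of each other. Another 3 members were called in opposite directions in different knockouts: Mcm2, the polymerase alpha subunit Pola2 and the polymerase delta subunit Pold2. They were singled out after their values were seen. The share of all genes with such opposite calls was not determined, so whether this count is unusual cannot be said. At least 1 comparison with WT passed for 24 members (61.7% of all genes did so) and none for the other 19, and the standard errors of the members' log2 fold changes ran from 0.087 to 0.193.

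Within the MCM2-7 helicase, the ring that unwinds DNA at the fork, 2 of 6 subunits were called higher and 1 lower in E1-KO, 2 higher in E2-KO, and 1 higher and 2 lower in E3-KO. Mcm5 measured 153.8 and 159.0 FPKM in WT, with E1-KO at 268.0 and 269.1, E2-KO at 268.9 and 243.8 and E3-KO at 211.3 and 229.3. All 6 knockout samples lay above both WT samples. The log2 fold changes of Mcm5 were 0.78 (SE 0.1, limma-trend adjusted p = 0.000722), 0.71 (0.00115) and 0.49 (0.00441) in E1-KO, E2-KO and E3-KO, and they passed the test under every alternative, without each sample in turn included.

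Mcm6, another subunit of the same ring, went the other way. Its level was 133.5 and 142.8 FPKM in WT, with E1-KO at 107.6 and 111.0, E2-KO at 120.8 and 110.7 and E3-KO at 95.84 and 94.69, with no knockout sample reaching a WT sample. It fell by 0.33 in E1-KO (limma-trend adjusted p = 0.0213) and by 0.53 in E3-KO (0.00221) on the log2 scale. In E2-KO its log2 fold change of -0.25 did not pass (limma-trend adjusted p = 0.0613). The call in E3-KO held in every alternative, but that in E1-KO was lost without either E1-KO sample or either WT sample (adjusted p 0.0684 to 0.157). The ratio of Mcm5 to Mcm6, chosen after the values were seen, was 1.13 ± 0.0274 (SD, n = 2) in WT and 2.46 ± 0.0459, 2.21 ± 0.017 and 2.31 ± 0.153 in E1-KO, E2-KO and E3-KO.

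Mcm2 separated the knockouts. It measured 213.3 and 218.7 FPKM in WT, 262.8 and 271.6 in E1-KO, 272.8 and 282.0 in E2-KO, but 164.0 and 167.5 in E3-KO, so that the WT samples lay between E3-KO and the other knockouts. The log2 fold changes were 0.31, 0.36 and -0.38 (limma-trend adjusted p = 0.0287, 0.0158 and 0.00952). Without WT replicate 1 or WT replicate 2 none of the 3 calls passed, nor did that in E1-KO without either E1-KO sample (adjusted p 0.116 to 0.159 for E1-KO, 0.0888 to 0.108 with E2-KO and 0.056 to 0.0798 with E3-KO). Quantile normalization ended the calls in E1-KO and E2-KO (log2 fold changes of 0.2 and 0.18, limma-trend adjusted p = 0.113 and 0.16), and median-ratio scaling that in E3-KO (-0.21, 0.0952). Mcm2 lies on chromosome 6, where the median over the 536 genes tested was -0.62 on the log2 scale for E3-KO, against -0.13 elsewhere. Against WT, chromosome 6 had a median of -0.05 (E1-KO) and -0.07 (E2-KO). Of the genes of that chromosome 64.7% were called lower in E3-KO, against 29.1% elsewhere. The part of this chromosome-wide shift in the Mcm2 value was not tested. The remaining subunits Mcm3, Mcm4 and Mcm7 had log2 fold changes between -0.21 and 0.22 and were not called.

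**Figure D2:**
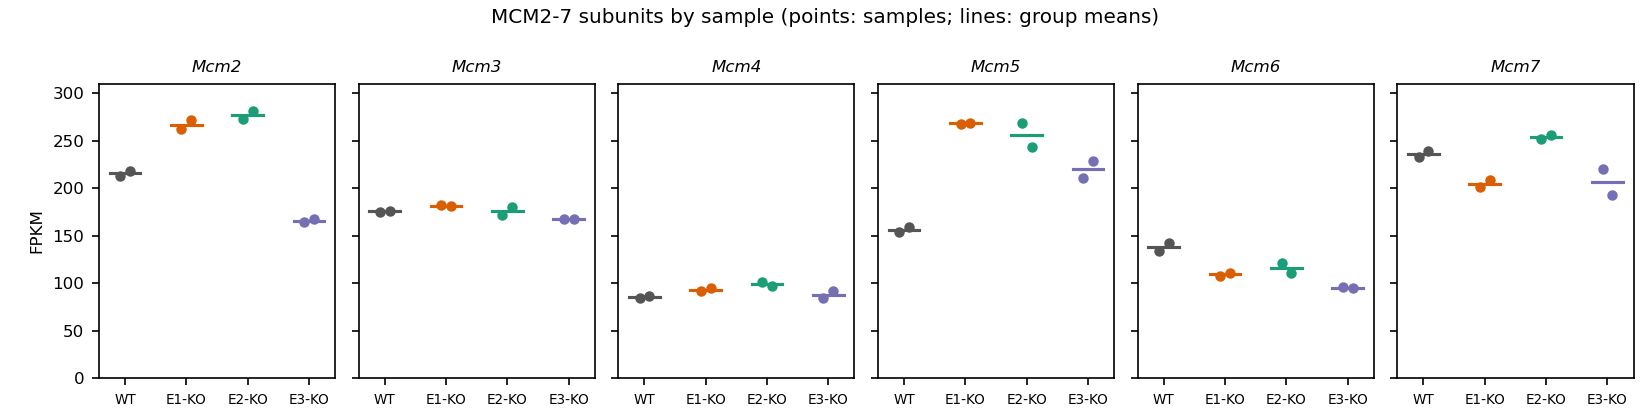
FPKM of the 6 subunits of the MCM2-7 helicase in each of the 8 samples (points, coloured by group), on a linear axis that starts at 0. Mcm5 lies above its WT level of 153.8 to 159.0 FPKM in all knockout samples, Mcm6 below its WT level of 133.5 to 142.8 FPKM, and Mcm2 above WT in E1-KO and E2-KO and below it in E3-KO.

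Of the 6 subunits of the origin recognition complex, which marks the sites where replication can start, none was called higher in any knockout, and 1, 1 and 3 were called lower in E1-KO, E2-KO and E3-KO. None was higher at an unadjusted p under 0.05 or by limma without the trend either. Of all genes, 23.0%, 22.0% and 30.8% were called lower in E1-KO, E2-KO and E3-KO. Orc3 had the largest fall of the whole set. It measured 62.07 and 56.79 FPKM in WT, with E1-KO at 50.82 and 51.36, E2-KO at 39.09 and 38.84 and E3-KO at 33.51 and 31.42, and no 2 groups overlapped. The log2 fold change was -0.21 in E1-KO, which did not pass (limma-trend adjusted p = 0.100), and the gene fell by 0.59 in E2-KO (0.00187) and by 0.85 in E3-KO (0.000228). Both calls held in every alternative.

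Orc5, which belongs to the same complex, was 37.48 and 35.94 FPKM in WT, with E1-KO at 22.92 and 26.59, E2-KO at 30.02 and 31.55 and E3-KO at 31.72 and 23.56. All knockout samples lay below WT, and the E3-KO samples were the widest apart. Orc5 fell by 0.55 in E1-KO (limma-trend adjusted p = 0.0147) and by 0.41 in E3-KO (0.0411), with -0.25 in E2-KO not passing (0.201). The E1-KO call was lost without E1-KO replicate 1 or either WT sample (0.068 to 0.112). In E3-KO the calls of Orc5 and of Orc4 (log2 fold change -0.43, limma-trend adjusted p = 0.0401) were lost under all 3 scalings, without the trend and, for Orc5, without either E1-KO sample, E3-KO replicate 2 or either WT sample (0.0539 to 0.228), and for Orc4 without either E1-KO sample, E3-KO replicate 2 or WT replicate 2 (0.0547 to 0.259). Orc1, Orc2 and Orc6 were not called against WT, with log2 fold changes from -0.26 to 0.27. Orc2, Orc4 and Orc6 overlap genes on the opposite strand that are also in the files, and whether reads were counted by strand is not given in the sources used here, so their values are uncertain. The same holds for Mcm7, Cdc45, Rfc2, Rfc4, Rfc5, Fen1, Lig1 and Tk1.

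Of the 3 licensing factors with values, 2 were called higher than WT with E1-KO, 2 with E2-KO and 1 with E3-KO. The shares of all genes called higher were 15.0%, 14.2% and 13.9% in the same order. Cdc6, the ATPase that loads the helicase, rose in each knockout. Its samples were at 21.37 and 22.85 FPKM in WT, with E1-KO at 35.14 and 36.05, E2-KO at 32.7 and 33.75 and E3-KO at 26.03 and 29.06, without overlap between WT and any knockout. The log2 fold changes were 0.66 (limma-trend adjusted p = 0.00134), 0.57 (0.00303) and 0.30 (0.0333). The first 2 held in every alternative. The call in E3-KO was lost without either E1-KO sample, E3-KO replicate 2 or either WT sample (0.0603 to 0.179), with the samples of the pair alone (0.0641) and without the trend (0.0504).

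Gmnn encodes geminin, the inhibitor that holds Cdt1 away from origins. It was 55.23 and 51.81 FPKM in WT, with E1-KO at 79.41 and 73.95, E2-KO at 102.9 and 84.2 and E3-KO at 64.73 and 63.27, again with every knockout sample above WT. Gmnn rose by 0.51 in E1-KO (limma-trend adjusted p = 0.00803) and 0.79 in E2-KO (0.00121), while 0.25 in E3-KO did not pass (0.0955). Without E1-KO replicate 1 or WT replicate 2 the E1-KO value was 0.46 to 0.47 (adjusted p 0.0695 to 0.0699). Mcm10, which helps the helicase to start, was not called in any knockout.

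Cdc45 and 3 of the 4 GINS subunits had values, and they were called higher only: 1 of these 4 with E1-KO, 2 with E2-KO and 1 with E3-KO. Higher calls made up 15.0%, 14.2% and 13.9% of all genes in the same order. Gins4 measured 62.68 and 60.09 FPKM in WT, with E1-KO at 82.09 and 84.63, E2-KO at 98.28 and 84.75 and E3-KO at 88.68 and 75.14, with no overlap with WT. It rose by 0.44, 0.56 and 0.41 (limma-trend adjusted p = 0.0162, 0.00575 and 0.0182). These calls did not hold without WT replicate 2 (0.0516 in E2-KO), and those in E1-KO and E3-KO also not without WT replicate 1, either E1-KO sample (E1-KO) or E3-KO replicate 1 (E3-KO), with adjusted p from 0.0662 to 0.11. Gins1 had log2 fold changes of 0.32, 0.35 and 0.29, of which that in E2-KO alone passed (limma-trend adjusted p = 0.064, 0.0468 and 0.0767). It was lost without either E1-KO sample, E2-KO replicate 1 or either WT sample (0.0747 to 0.226). Cdc45 and Gins3 stayed between -0.08 and 0.12 and were not called.

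**Figure D3:**
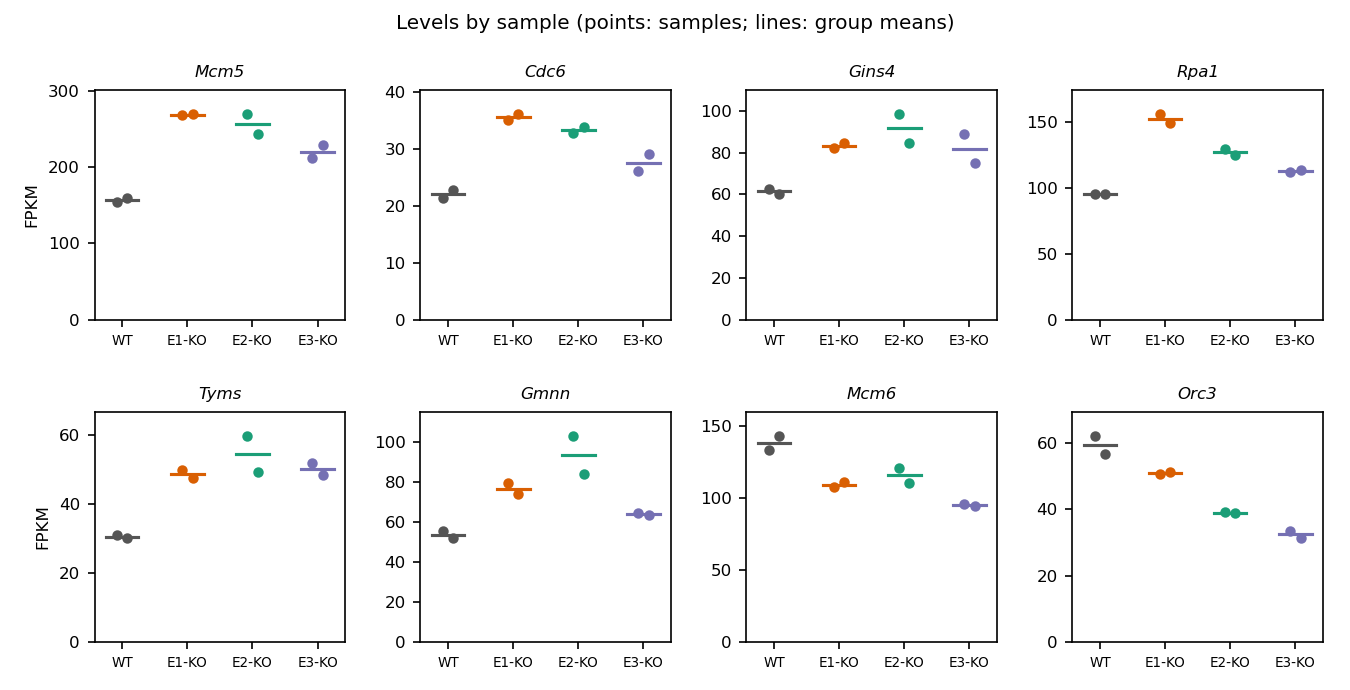
FPKM in each sample (points, coloured by group) of members for which values in every sample are given, on linear axes that start at 0, 1 panel a gene. Mcm5, Cdc6 and Tyms lie above both WT samples in all 6 knockout samples, and Orc3 steps down from WT through E1-KO and E2-KO to E3-KO.

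Of the sliding clamp and its 5 loader subunits, 2 were called higher with E1-KO, 1 was with E2-KO, and 1 was called lower with E3-KO. Beside these stand 15.0% and 14.2% of all genes called higher with E1-KO and E2-KO, and 30.8% called lower with E3-KO. Rfc1, the large subunit, was 50.82 and 51.03 FPKM in WT, with E1-KO at 80.44 and 75.58, E2-KO at 69.12 and 55.91 and E3-KO at 50.73 and 58.96. Its rise of 0.60 in E1-KO (limma-trend adjusted p = 0.00548) held in every alternative, while 0.28 in E2-KO and 0.10 in E3-KO did not pass (0.102 and 0.529). Rfc5 was 54.12 and 62.26 FPKM in WT, with E1-KO at 48.72 and 46.06, E2-KO at 52.66 and 41.66 and E3-KO at 37.66 and 40.38, so all knockout samples lay below WT. Rfc5 fell by 0.56 in E3-KO (limma-trend adjusted p = 0.00725), a call lost without WT replicate 2 (-0.46, 0.0691), and had -0.29 and -0.30 in E1-KO and E2-KO (0.106 and 0.0935). The ratio of Rfc1 to Rfc5, chosen after the values were seen, was 0.879 ± 0.0844 (SD, n = 2) in WT, with E1-KO at 1.65 ± 0.00746, E2-KO at 1.33 ± 0.0209 and E3-KO at 1.40 ± 0.0799.

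Pcna, the clamp itself, was at 182.0 and 174.8 FPKM in WT, with E1-KO at 196.5 and 214.4, E2-KO at 239.8 and 201.0 and E3-KO at 150.7 and 141.4. The samples of E1-KO and E2-KO lay above WT and those of E3-KO below it, yet none of the log2 fold changes of 0.20, 0.30 and -0.29 passed (limma-trend adjusted p = 0.19, 0.0677 and 0.066). Pcna has 2 named pseudogenes that could share reads with it. Rfc2 was called higher in E1-KO (0.32, limma-trend adjusted p = 0.0407) and E2-KO (0.31, 0.0477), and lost both calls without either E1-KO sample or either WT sample, and that in E2-KO also without either E2-KO sample (0.081 to 0.195). Rfc3 and Rfc4 were not called.

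Polymerase and primase genes held 5 of the 12 lower calls in E3-KO. Of 9 subunits, 2 were called higher in E1-KO, none passed in E2-KO, and 5 were called lower in E3-KO. The 5 were Pola2, Pold1, Pold2, Pole and Pole2, of the alpha, delta and epsilon enzymes. Higher calls in E1-KO made up 15.0% of all genes, and lower calls in E3-KO 30.8%. Under median-ratio scaling 1 of 9 was called lower in E3-KO, under quantile normalization 2 and under scaling without the 50 highest genes 4, all 9 then having a median of -0.13 to -0.24 in place of -0.30. In E2-KO the count of these subunits was also 0 at an unadjusted p under 0.05 and by limma without the trend.

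Pold1, the catalytic subunit of polymerase delta, kept its call in every alternative. It measured 65.58 and 62.07 FPKM in WT, with E1-KO at 63.66 and 64.86, E2-KO at 61.0 and 59.72 and E3-KO at 45.3 and 45.81, where both samples lay below all others. Pold1 fell by 0.48 in E3-KO (limma-trend adjusted p = 0.00257), beside 0.01 in E1-KO and -0.08 in E2-KO. Its partner Pold2 measured 52.17 and 60.05 FPKM in WT, with E1-KO at 68.23 and 69.73, E2-KO at 62.22 and 59.45 and E3-KO at 41.57 and 43.99. Pold2 was called higher in E1-KO (0.30, limma-trend adjusted p = 0.0434) and lower in E3-KO (-0.38, 0.0136). The first call was lost without any single E1-KO or WT sample (0.0628 to 0.286), and the second without WT replicate 2 (-0.28, 0.132) and under median-ratio scaling (-0.21, 0.109).

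Pola2, the regulatory subunit of polymerase alpha, was 30.52 and 30.62 FPKM in WT, with E1-KO at 44.19 and 40.39, E2-KO at 30.87 and 29.93 and E3-KO at 22.96 and 26.58. It was called higher in E1-KO (0.45, limma-trend adjusted p = 0.0095) and lower in E3-KO (-0.30, 0.045). The E1-KO call was lost without E1-KO replicate 1 or either WT sample (0.0585 to 0.0855), and the E3-KO call without either E1-KO sample, E3-KO replicate 1 or either WT sample (0.069 to 0.183) and under all 3 scalings (0.114 to 0.368). In polymerase epsilon, the leading-strand enzyme, the catalytic subunit Pole fell from 34.95 and 35.05 FPKM in WT to 26.86 and 28.33 in E3-KO (-0.33, limma-trend adjusted p = 0.015). Pole2 fell from 17.81 and 19.85 FPKM to 13.81 and 14.53 (-0.38, limma-trend adjusted p = 0.0168). Pole was not called without either WT sample (0.0798 to 0.0882), Pole2 not without E3-KO replicate 1 or WT replicate 2 (0.0559 to 0.135), and neither under quantile normalization or median-ratio scaling. Pola1, Prim1, Prim2 and Pold3 were not called against WT.

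RPA coats single-stranded DNA at the fork, and its large subunit Rpa1 rose in all 3 knockouts. It was 95.53 and 95.28 FPKM in WT, with E1-KO at 156.2 and 149.4, E2-KO at 130.1 and 125.6 and E3-KO at 112.7 and 113.5. No 2 of the 4 groups overlapped. The log2 fold changes were 0.67, 0.42 and 0.24 (limma-trend adjusted p = 0.000746, 0.00675 and 0.0484). The first held in every alternative and the second in all but those without WT replicate 1 or WT replicate 2 (0.0519 to 0.0581). The third was lost without any single sample of E1-KO, E3-KO or WT (0.0787 to 0.192), with the samples of the pair alone and without the trend.

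The small RPA subunit Rpa3 measured 27.81 and 29.87 FPKM in WT, with E1-KO at 33.16 and 26.81, E2-KO at 52.89 and 37.93 and E3-KO at 24.59 and 18.27. E2-KO lay above WT and E3-KO below it. Rpa3 rose by 0.62 in E2-KO (limma-trend adjusted p = 0.0296), which was lost without E2-KO replicate 1 (0.38) or either WT sample (0.0957 to 0.173), and had 0.05 in E1-KO and -0.43 in E3-KO, neither of which passed (0.855 and 0.0917). Rpa3 also lies on chromosome 6. Rpa2, the flap endonuclease Fen1 and the ligase Lig1 were not called against WT.

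Enzymes of deoxynucleotide supply split as well: 1 of 4 was called higher and 1 lower in E1-KO, 2 higher in E2-KO, and 1 in each direction in E3-KO. For all genes the shares called higher and lower were 15.0% and 23.0%, 14.2% and 22.0%, and 13.9% and 30.8%. Tyms, thymidylate synthase, makes dTMP from dUMP. It measured 31.07 and 29.98 FPKM in WT, with E1-KO at 49.79 and 47.49, E2-KO at 59.62 and 49.31 and E3-KO at 51.99 and 48.54, well apart from WT in every knockout sample. Tyms rose by 0.66, 0.81 and 0.70 (limma-trend adjusted p = 0.00233, 0.000995 and 0.00131), or 1.59-fold, 1.78-fold and 1.65-fold in the linear means, and held all 3 calls in every alternative. Tyms has a named pseudogene, Tyms-ps, that could share reads with it.

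Tk1, thymidine kinase, makes dTMP by the salvage route. It was 86.35 and 87.33 FPKM in WT, with E1-KO at 81.75 and 86.84, E2-KO at 64.09 and 76.08 and E3-KO at 65.37 and 59.38. E1-KO overlapped WT, whereas E2-KO and E3-KO lay below it. Tk1 fell by 0.47 in E3-KO (limma-trend adjusted p = 0.00763), a call lost without WT replicate 2 (-0.46, 0.0548), and had -0.04 and -0.31 in E1-KO and E2-KO (0.779 and 0.0518). The ratio of Tyms to Tk1, chosen after the values were seen, was 0.352 ± 0.0117 (SD, n = 2) in WT, with E1-KO at 0.578 ± 0.044, E2-KO at 0.789 ± 0.2 and E3-KO at 0.806 ± 0.0156.

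Ribonucleotide reductase turns ribonucleotides into deoxyribonucleotides, with Rrm1 as its large and Rrm2 as its S-phase small subunit. Rrm1 was 60.53 and 63.91 FPKM in WT, with E1-KO at 73.81 and 73.36, E2-KO at 75.39 and 73.46 and E3-KO at 68.84 and 65.98, above WT in every sample. Its log2 fold change of 0.26 in E2-KO passed (limma-trend adjusted p = 0.0487) and those of 0.24 in E1-KO and 0.11 in E3-KO did not (0.0585 and 0.319). The call was lost without any single sample of E1-KO, E2-KO or WT (0.0667 to 0.242). Rrm2 was 161.8 and 165.6 FPKM in WT, with E1-KO at 123.0 and 135.8, E2-KO at 164.5 and 142.1 and E3-KO at 145.1 and 160.6. It fell by 0.34 in E1-KO (limma-trend adjusted p = 0.0391), which was lost without any single E1-KO or WT sample (0.0811 to 0.23) and under median-ratio scaling (-0.27, 0.0843), and had -0.10 in both other knockouts. The ratio of Rrm2 to Rrm1, chosen after the values were seen, was 2.63 ± 0.0577 (SD, n = 2) in WT, with E1-KO at 1.76 ± 0.13, E2-KO at 2.06 ± 0.175 and E3-KO at 2.27 ± 0.23.

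**Figure D4:**
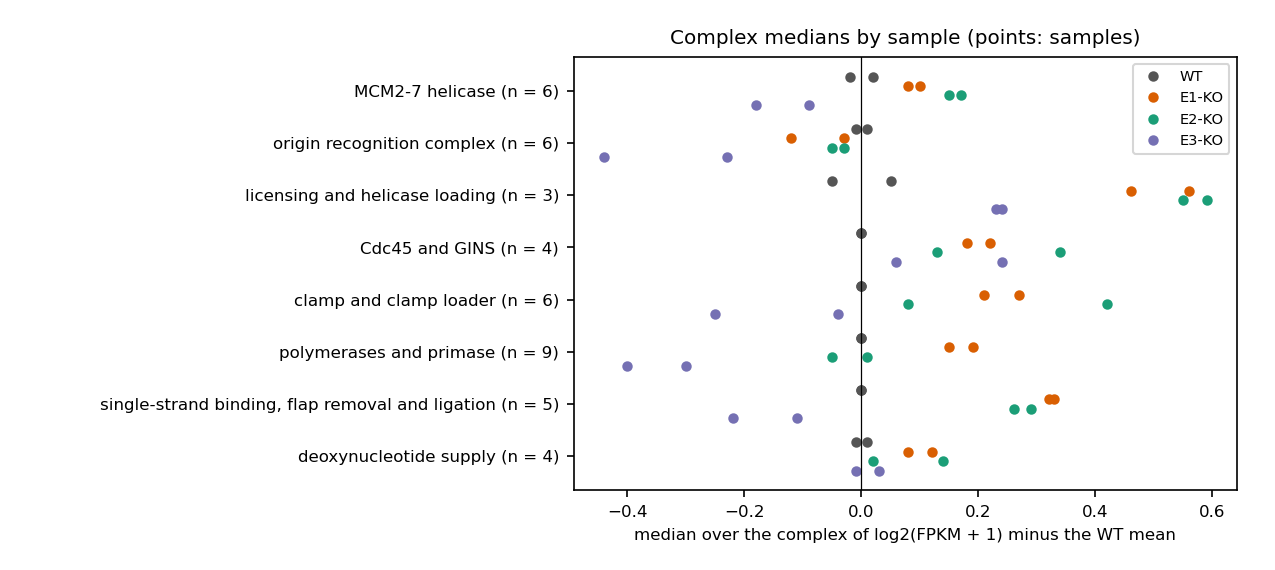
Median over the members of each complex of log2(FPKM + 1) minus the WT mean (x axis), with 1 point for each of the 8 samples, coloured by group. The median against WT kept its sign in all 3 knockouts under every scaling tried for licensing and for Cdc45 with GINS, and it changed sign under at least 1 scaling in at least 1 knockout for each of the other 6 complexes.

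The knockouts were compared with each other to ask whether the losses differed. Between E2-KO and E1-KO no member was called by limma-trend, beside 0.834% of all genes. Limma without the trend also called 0, and 9 of the 43 members had an unadjusted p under 0.05 (20.9%, beside 18.6% of all genes). The lowest adjusted p was 0.0788, for Pola2. Between E3-KO and E1-KO, 0 members were called higher and 14 lower, beside 25.8% of all genes (9.42% higher, 16.4% lower). Between E3-KO and E2-KO, 0 were called higher and 8 lower, beside 15.6% of all genes (5.48% higher, 10.1% lower). At an unadjusted p under 0.05 there were 0 higher and 22 lower in the first and 0 higher and 19 lower in the second. Limma without the trend also called none higher in either. Under quantile normalization 1 member, Rrm2, was called higher in E3-KO than in E1-KO. The member medians were -0.28 and -0.26, beside -0.099 and -0.09 over all genes tested. Under median-ratio scaling, which brought the medians of all genes to -0.007 and -0.009, they were -0.18 and -0.17 with 11 and 7 members called lower.

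Mcm2, Pcna, Pold1, Pold2 and Pole2 were called lower in E3-KO against both other knockouts. Of all genes, 16.4% were called lower against E1-KO and 10.1% against E2-KO. The share called lower in both was not determined, and the 2 comparisons share the E3-KO samples. For Mcm2 the log2 differences were -0.69 (limma-trend adjusted p = 0.00112) from E1-KO and -0.74 (0.00176) from E2-KO, held in every alternative that included chromosome 6. For Pcna they were -0.49 (0.0134) and -0.59 (0.0107), for Pold1 -0.49 (0.00425) and -0.40 (0.0173), for Pold2 -0.68 (0.00176) and -0.50 (0.0125), and for Pole2 -0.56 (0.00571) and -0.44 (0.024). Against E1-KO, the Pcna call was lost without either E1-KO sample (0.0549 to 0.106) and the Pole2 call without E1-KO replicate 1 (0.051). Against E2-KO, fitting the samples of the pair alone ended the calls of Pcna (0.0713), Pold1 (0.114), Pold2 (0.0679) and Pole2 (0.109). The Pold1 call was also lost without E2-KO replicate 1 (0.0521), under quantile normalization (0.0515) and with scaling without the 50 highest genes (0.0712). The Pole2 call was also lost without E1-KO replicate 1, E2-KO replicate 1 or either E3-KO sample (0.05 to 0.0956) and with scaling without the 50 highest genes (0.0603).

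Polymerase subunits made up 5 of the 14 members called lower in E3-KO than in E1-KO. These 5 calls held under the 3 other scalings tried, each of which left 11 members called lower. Pola2 had a log2 difference of -0.75 (limma-trend adjusted p = 0.00135) that held in every alternative. Pold3 measured 56.37 and 60.15 FPKM in E1-KO and 33.77 and 43.73 in E3-KO (-0.59, limma-trend adjusted p = 0.0114), and Lig1 160.5 ± 3.82 and 104.4 ± 18.1 FPKM (SD, n = 2; -0.63, 0.0108). Each was lost without either E1-KO sample or E3-KO replicate 1 (0.0502 to 0.0788). Orc3 (-0.64, limma-trend adjusted p = 0.00163) held in every alternative. Rpa3 had the largest difference between E3-KO and E2-KO, with -1.04 (limma-trend adjusted p = 0.00769), which held in every alternative that included chromosome 6.

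Genes around these complexes were read from 4 lists. Of 49 other replication genes, 45 were tested, with 11 higher and 8 lower for E1-KO, 9 and 6 with E2-KO and 5 and 13 with E3-KO, and medians of 0.07, -0.00 and -0.12. The shares called were 42.2%, 33.3% and 40.0%, beside 38.0%, 36.1% and 44.7% of all genes. Ccne1, the cyclin E1 that drives entry into S phase, rose from 31.04 and 29.96 FPKM in WT to 95.03 and 99.34 for E1-KO, 115.9 and 88.11 with E2-KO and 51.41 and 73.1 with E3-KO. Its log2 fold changes of 1.64, 1.70 and 0.98 (limma-trend adjusted p = 0.000302, 0.000317 and 0.00216) exceeded those of every member of the main set in the same knockout. Pole4, an accessory subunit of polymerase epsilon that also lies on chromosome 6, rose by 1.01, 1.18 and 0.29 (limma-trend adjusted p = 0.000248, 0.000147 and 0.0425), the last of which was lost without any single sample of E1-KO, E3-KO or WT (0.0626 to 0.269). Ddb1, an adaptor of the ubiquitin ligase that removes Cdt1, fell by 1.04, 0.80 and 0.80 (limma-trend adjusted p = 0.000242, 0.000804 and 0.000504). Primpol, a primase that restarts stalled forks, fell by 0.73, 0.89 and 1.30 (0.00449, 0.00195 and 0.000223).

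Of 44 other nucleotide synthesis genes, 40 were tested: 3 were higher and 9 lower for E1-KO, 3 and 7 with E2-KO and 2 and 15 with E3-KO, with medians of -0.10, -0.10 and -0.21. The shares called were 30.0%, 25.0% and 42.5%, below those of all genes in each knockout. Adssl1, an adenylosuccinate synthase of purine synthesis, measured 3.652 and 3.8 FPKM in WT and less than 1 FPKM in all 6 knockout samples, with E3-KO lowest at 0.2606 and 0.3233. It fell by 1.29, 1.45 and 1.87 (limma-trend adjusted p = 0.000479, 0.000355 and 8.51e-05), which on the log2(FPKM + 1) scale understates the change of a gene at so low a level. Dguok, the mitochondrial deoxyguanosine kinase, which lies on chromosome 6, fell by 1.22 in E3-KO (limma-trend adjusted p = 0.000893) and by 0.68 in E1-KO (0.015), the latter lost without E1-KO replicate 2 or WT replicate 2 (0.103 to 0.106), and had -0.46 in E2-KO (0.0701). Cad, which carries out the first steps of pyrimidine synthesis, measured 103.5 and 118.0 FPKM in WT, with E1-KO at 52.61 and 66.14, E2-KO at 63.49 and 69.22 and E3-KO at 59.1 and 61.33. Cad fell by 0.89, 0.73 and 0.87 (limma-trend adjusted p = 0.00104, 0.00296 and 0.000919). Ctps2, a CTP synthase, fell by 0.76, 0.93 and 1.07 (limma-trend adjusted p = 0.00498, 0.00221 and 0.000801), and Tk2, the mitochondrial thymidine kinase, by 0.91, 0.74 and 0.73 (0.00331, 0.00909 and 0.00707). Without WT replicate 2 Tk2 was not called in E2-KO (0.0626) or E3-KO (0.0503).

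Among 18 tested E2F and pocket protein genes, 6 were higher and 3 lower for E1-KO, 2 and 2 with E2-KO, and 7 lower with E3-KO, with medians of 0.08, -0.03 and -0.15. The shares called were 50%, 22.2% and 38.9%, beside 38.0%, 36.1% and 44.7% of all genes. Foxm1, a transcription factor of genes for mitosis that lies on chromosome 6, fell by 0.81 in E3-KO (limma-trend adjusted p = 0.000418), beside -0.05 and -0.04 in E1-KO and E2-KO (0.723 and 0.773). Tfdp2, a dimerization partner of E2F proteins, fell by 0.65 in E1-KO (limma-trend adjusted p = 0.00356), beside -0.30 and -0.23 in E2-KO and E3-KO (0.0783 and 0.152). E2f1, an activator of S-phase genes, measured 22.64 and 22.28 FPKM in WT, with E1-KO at 17.04 and 18.64, E2-KO at 14.97 and 17.0 and E3-KO at 12.57 and 13.14. It fell by 0.32, 0.47 and 0.76 (limma-trend adjusted p = 0.0452, 0.0101 and 0.000825). The E1-KO call was lost without any single sample of E1-KO or WT (0.0926 to 0.235) and under all 3 scalings, and the E2-KO call without E2-KO replicate 1 or either WT sample (0.0521 to 0.0662). E2f3 rose by 0.71 in E1-KO and 0.82 in E2-KO (limma-trend adjusted p = 0.0365 and 0.0216), and 0.49 in E3-KO did not pass (0.107). Without single samples of E1-KO or WT the first was not called (0.0547 to 0.206), and the second was not without E2-KO replicate 2 or WT replicate 2 (0.115 to 0.14). E2f7, a repressor of S-phase genes, rose by 0.59 in E1-KO and 0.48 in E2-KO (limma-trend adjusted p = 0.0113 and 0.0276), with 0.21 in E3-KO (0.25). Both calls were lost without WT replicate 2 (0.0973 and 0.187), the first also without E1-KO replicate 1 (0.0801) and the second without either E2-KO sample (0.0563 to 0.109).

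All 25 mitosis genes were tested, with 8 higher and 3 lower for E1-KO, 7 and 3 with E2-KO and 5 and 7 with E3-KO, and medians of 0.22, -0.01 and -0.10. The shares called were 44.0%, 40.0% and 48.0%, beside 38.0%, 36.1% and 44.7% of all genes. The kinase Aurka rose by 0.71, 0.57 and 0.61 (limma-trend adjusted p = 0.000725, 0.00212 and 0.00109), and the checkpoint kinase Bub1 fell by 0.79, 1.03 and 1.34 (0.00155, 0.000545 and 0.000111). Ube2c, a ubiquitin-conjugating enzyme of the anaphase-promoting complex, rose by 0.55, 0.75 and 0.89 (limma-trend adjusted p = 0.0246, 0.00708 and 0.00244). Its E1-KO call was lost without any single sample of E1-KO or WT (0.0965 to 0.115), and its E2-KO call without WT replicate 2 (0.0509). Cenpa, the centromeric histone, fell by 0.60 in E1-KO and 0.90 in E3-KO (limma-trend adjusted p = 0.0139 and 0.00178) and had -0.39 in E2-KO (0.0725). The E1-KO call was lost without E1-KO replicate 1 or WT replicate 2 (0.104 to 0.117).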

How the data were processed

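The authors deposited, for each of the 8 samples, a list of Ensembl gene identifiers with a value that was taken as FPKM, since the submitters' processing notes name Cufflinks 2.2.1 (with Trimmomatic 0.36, TopHat2 2.0.12 and the build mm9) and the values are not whole numbers. Depth is unknown, so no counting interval is given. FPKM is a relative measure, and a change in a few abundant genes shifts all other genes. Of 17812 identifiers, 660 had more than 1 row (1622 rows), and 17728 were kept, each repeated one by its place in the GENCODE M21 (GRCm38) order. Each member had 1 row. Chromosomes come from that annotation and promoters from RefSeq.

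Genes that averaged 1 FPKM or more were tested on log2(FPKM + 1) with limma-trend (limma 3.58.1, R 4.3.3), all 8 samples in 1 fit with the group as the term and 4 residual degrees of freedom, two-sided, with Benjamini-Hochberg adjustment over 11269 genes. In data simulated for E1-KO against WT over 11269 genes, 98% of 200 genes changed by 1 on the log2 scale and 9.5% of 200 changed by 0.5 were called. Only these 200 genes were changed in each run, whereas 38.0% of all genes were called in the data. The adjustment is stricter with so few changed genes, so these shares do not give the power of the comparisons made here. Alternatives were another pseudocount, filter, scaling, test or sample set, the replicate block, summed rows, chromosome 6 left out and each sample left out. Same-numbered samples did not deviate together (mean correlation 0.00483, from -0.0418 to 0.0889 over 6 pairs of groups), so the numbers were not taken as pairs. Values in every sample are given for members called against WT by 0.5 or more on the log2 scale in either direction and with no overlap with WT, for the key licensing, clamp and nucleotide enzymes, and for members singled out in the text, and from each further list the 2 called genes with the largest change in each comparison with WT are named, with Cad, which was among the 4 largest for E1-KO and E2-KO. The members and lists were chosen with earlier results of these data known. Figures were drawn with matplotlib 3.10.9.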

Additional observations from a re-analysis of the deposited data

Results flagged for a closer look

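Of all genes tested, 16.4% were called lower and 9.42% higher in E3-KO than in E1-KO. Against E2-KO these shares were 10.1% and 5.48%. Knockouts compared directly with each other differed in 22 tests of single members, and in each of them E3-KO was the lower. For these genes the change against WT in E3-KO differed from that in another knockout, by the test of the difference itself with limma-trend. Against E1-KO these were, with the log2 difference and the adjusted p, Mcm2 (-0.69, 0.00112), Orc3 (-0.64, 0.00163), Cdc6 (-0.36, 0.0268), Pcna (-0.49, 0.0134), Rfc1 (-0.5, 0.0166), Pola2 (-0.75, 0.00135), Pold1 (-0.49, 0.00425), Pold2 (-0.68, 0.00176), Pold3 (-0.59, 0.0114), Pole2 (-0.56, 0.00571), Rpa1 (-0.43, 0.00769), Rpa2 (-0.47, 0.0325), Lig1 (-0.63, 0.0108) and Tk1 (-0.43, 0.0195). Against E2-KO they were Mcm2 (-0.74, 0.00176), Orc6 (-0.42, 0.0319), Gmnn (-0.53, 0.0152), Pcna (-0.59, 0.0107), Pold1 (-0.4, 0.0173), Pold2 (-0.5, 0.0125), Pole2 (-0.44, 0.024) and Rpa3 (-1.04, 0.00769). Without each sample in turn the calls against E1-KO held for Mcm2, Orc3, Pola2, Pold1 and Pold2 and those against E2-KO for Mcm2, Pcna, Pold2 and Rpa3, but with the samples of the pair alone Pcna (0.0713) and Pold2 (0.0679) were not called against E2-KO. The other calls were lost without at least 1 sample of the knockouts compared. Cdc6, Rpa2 and Tk1 against E1-KO and Orc6 against E2-KO were also lost under all 3 other scalings (limma-trend adjusted p 0.0528 to 0.0952). With the samples of the pair alone, Cdc6 against E1-KO (0.0523) and Orc6, Gmnn, Pold1 and Pole2 against E2-KO (0.0802 to 0.118) were lost too. Mcm2 and Rpa3 lie on chromosome 6, whose genes had a median of -0.62 in E3-KO against WT. Groups of 2 samples were not examined for single outlying samples.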

How the results depend on the processing

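Leaving out 1 sample at a time gave 5 to 18 called members in E1-KO against WT (14 with all samples), 5 to 15 in E2-KO (12) and 5 to 20 in E3-KO (17). It gave 0 to 2 for E2-KO against E1-KO (0), 5 to 18 for E3-KO against E1-KO (14) and 4 to 11 for E3-KO against E2-KO (8). Without WT replicate 2 each comparison with WT had 5, and the lone WT sample is then assumed to vary like the other groups. Fitting only the samples of the pair gave 26 members in E1-KO against WT (20 higher, 6 lower). The share of all genes called there rose as well, to 49.3% from 38.0%. In that comparison, fewer of all genes were likewise called without a sample of E1-KO or WT, and more without a sample of E2-KO or E3-KO. In E2-KO against WT, fewer of all genes were called without a sample of E1-KO, E2-KO or WT, and more without a sample of E3-KO. For the other comparisons, the change over all genes is not given here. Between E3-KO and E2-KO, fitting the pair alone gave 2 members and scaling without the 50 highest genes gave 5. The cause of these changes was not tested. All other alternatives stayed within 1.5 times the count with all samples. No called value changed its sign. Calls held in every alternative for Mcm5, Cdc6, Rfc1, Rpa1 and Tyms (E1-KO), Mcm5, Orc3, Cdc6, Gmnn and Tyms (E2-KO), and Mcm5, Mcm6, Orc3, Pold1 and Tyms (E3-KO).

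A replicate block changed the counts to 11 (E1-KO), 9 (E2-KO) and 14 (E3-KO) against WT and left those between knockouts at 0, 14 and 8. The samples share only a number, so the block stands for no known pairing. With 2 samples a group and FPKM without depth, differences of about 0.3 on the log2 scale lie near what the test can call.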
